A study of Mus musculus with 9 samples.

Results

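The mucins and the glycosyltransferase families that hold the enzymes of their O-glycans were examined in mouse duodenal organoids that expressed human HIF1 or human HIF2. Members were taken by gene symbol, as every Galnt, Galntl, Muc, B3gnt, B4galt, B3galt, St3gal, St6gal, St6galnac, Fut, Gcnt or C1galt gene with a number, which gave 80 of the 46517 genes in the deposited tables. The organoids were grown from duodenal crypts of wild-type C57BL/6J mice in L-WRN conditioned medium, which supplies Wnt3a, R-spondin 3 and noggin, at 5% oxygen. Dissociated cells were transduced with adenovirus at 50 particles per cell, and bulk RNA was taken about 72 hours later. Of the 9 samples, 3 received Ad-GFP, a virus for green fluorescent protein that serves as control, 3 received Ad-hHIF2 and 3 received Ad-hHIF1. Both HIF viruses carry human alleles whose key prolines were replaced, so that VHL does not mark the protein for destruction. The samples of each group are replicates 1, 3 and 4 of the labels. The study calls them biological replicates, and neither it nor the labels say how many mice or cultures they came from.

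Mucin-type O-glycosylation begins in the Golgi, where a GalNAc-transferase of the Galnt family places N-acetylgalactosamine on a serine or threonine. C1galt1 then adds galactose to form core 1, Gcnt1, Gcnt3 and Gcnt4 branch core 1 into core 2, and B3gnt6 forms core 3. B3gnt and B4galt enzymes lengthen the branches, and fucosyltransferases and sialyltransferases cap them. In the intestine these glycans coat Muc2, the gel-forming mucin of goblet cells, and the transmembrane mucins of the epithelial surface. Several members act also or only on N-glycans, glycolipids or proteoglycans, so a change in a member is not always one in mucin O-glycosylation.

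Grouped by role, the members were 5 gel-forming mucins, 8 transmembrane mucins, 18 Galnt and Galntl genes, 5 core enzymes, 9 genes for branching and GlcNAc extension, 12 galactosyltransferases, 8 fucosyltransferases and 14 sialyltransferases. The remaining member, Galnt6os, matches the symbol pattern but is an antisense RNA, and it had at most 1 count in any sample. Positions below are from the GENCODE M21 annotation of GRCm38, which matched 79 members by Ensembl identifier. Muc16 had no match.

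Promoter sequences are shown for the 3 members that rose at least 2-fold in Ad-hHIF2 organoids, Galnt9, Gcnt1 and B4galt5. Each is the 250 bases before a RefSeq transcription start (GRCm38.p6), written 5′ to 3′ on the strand of the gene. Capitals mark ACGTG or GCGTG on either strand, the core letters of the hypoxia response element that HIF proteins bind. Galnt9 has a RefSeq start at the 5′ end of the gene and another within it, both on the plus strand, with windows chr5:110544105-110544354 and chr5:110603255-110603504.
Galnt9, outer start: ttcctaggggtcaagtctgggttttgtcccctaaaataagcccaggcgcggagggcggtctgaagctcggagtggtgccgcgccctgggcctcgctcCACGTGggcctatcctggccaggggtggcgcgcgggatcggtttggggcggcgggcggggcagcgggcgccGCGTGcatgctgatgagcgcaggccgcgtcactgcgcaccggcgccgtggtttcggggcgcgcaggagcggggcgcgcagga
Galnt9, inner start: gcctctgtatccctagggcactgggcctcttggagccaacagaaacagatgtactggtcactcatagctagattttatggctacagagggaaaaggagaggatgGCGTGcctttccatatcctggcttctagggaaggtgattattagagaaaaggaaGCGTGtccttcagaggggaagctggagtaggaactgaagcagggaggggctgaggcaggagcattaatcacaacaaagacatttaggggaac
The outer window holds ACGTG on both strands, in letters that overlap 152 to 149 bases before the start, and GCGTG 82 to 78 bases before it. The inner window holds GCGTG at 146 to 142 and at 92 to 88 bases before its start.

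Gcnt1 has 3 RefSeq starts on the minus strand, with windows chr19:17372845-17373094, chr19:17356668-17356917 and chr19:17339506-17339755, and B4galt5 has 1 on the minus strand, with the window chr2:167349179-167349428.
Gcnt1, outer start: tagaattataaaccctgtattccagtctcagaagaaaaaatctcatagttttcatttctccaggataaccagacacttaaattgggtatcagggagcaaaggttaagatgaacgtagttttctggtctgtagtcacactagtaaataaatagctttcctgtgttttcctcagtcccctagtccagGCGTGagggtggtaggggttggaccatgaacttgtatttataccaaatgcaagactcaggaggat
Gcnt1, middle start: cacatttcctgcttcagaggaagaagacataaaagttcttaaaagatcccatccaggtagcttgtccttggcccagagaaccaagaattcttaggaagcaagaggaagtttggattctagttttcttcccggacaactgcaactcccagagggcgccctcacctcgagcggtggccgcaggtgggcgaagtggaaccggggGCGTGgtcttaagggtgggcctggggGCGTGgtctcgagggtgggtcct
Gcnt1, inner start: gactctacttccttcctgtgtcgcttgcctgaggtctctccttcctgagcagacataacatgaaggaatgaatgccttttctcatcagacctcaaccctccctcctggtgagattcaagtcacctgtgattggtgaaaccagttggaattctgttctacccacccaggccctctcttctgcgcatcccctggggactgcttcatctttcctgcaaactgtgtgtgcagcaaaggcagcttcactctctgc
B4galt5: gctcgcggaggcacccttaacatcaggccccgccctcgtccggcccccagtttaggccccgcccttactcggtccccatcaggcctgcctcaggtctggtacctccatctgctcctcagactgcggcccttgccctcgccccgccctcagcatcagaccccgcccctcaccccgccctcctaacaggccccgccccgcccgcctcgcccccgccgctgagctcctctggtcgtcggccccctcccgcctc
In Gcnt1 the outer window holds GCGTG at 65 to 61 bases before the start, the middle window holds it at 49 to 45 and 23 to 19 bases before the start, and the inner window holds neither motif. The B4galt5 window holds neither, which says only that these letters are not in these 250 bases. Of all 32851 RefSeq windows of this length, 38.6% held at least 1 of the motifs. Counted by gene, 41.5% of 27025 genes and 33 of the 58 members with a window (56.9%) held one, among them 9 of 11 members that were higher in Ad-hHIF2 than in Ad-GFP, 2 of 5 that were lower and 13 of 21 that were tested and did not pass. By window, 11 of 19 windows of the higher members (57.9%) and 4 of 8 of the lower members held a motif. Of the windows of members that did not pass, 15 of 24 (62.5%) held one. The higher members thus had a larger share than those that did not pass by gene, but not by window. These shares were not tested, and a match is a description of the letters and not a measured binding site.

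Library totals ran from 21722618 to 51119041 expected counts. The mouse gene Epas1, which encodes HIF2α, was at 604 to 758 CPM (counts scaled to a common library size with TMM factors) in the Ad-hHIF2 libraries and at 1.47 to 3.07 in the other 6, and mouse Hif1a was at 299 to 319 CPM in Ad-hHIF1 and 198 to 251 in the other 6. Reads of the human transgenes cannot be told from those of the mouse genes in these tables. Satellite-like repeat genes held 15.96% of the counts of Ad-hHIF1 replicate 3 and 0.43 to 4.28% of those of the other libraries. Of the 6 epithelial genes, Krt8, Krt18 and Krt19 were at 764 to 1360 CPM and Vil1 at 3.27 to 4.94. Cdh1 was higher in Ad-hHIF2 than in Ad-GFP, at 294 to 352 against 204 to 226 CPM (log2 fold change 0.53, adjusted p = 0.00313, edgeR), and Epcam lower, at 1.42 to 1.90 against 2.45 to 3.80 (-0.81, adjusted p = 0.0472, edgeR). Of the intestinal transcription factors, Cdx2 was at 6.55 to 8.99 CPM, Cdx1 had 0 counts in every library, and Hnf4a was lower in Ad-hHIF2 than in Ad-GFP, at 21.2 to 26.7 against 32.1 to 35.4 CPM (log2 fold change -0.50, adjusted p = 0.00471, edgeR). Tff3, Zg16, Spdef and Atoh1 of the 8 goblet genes, 6 of the 7 Paneth genes and Fabp1 of the 8 enterocyte genes had at most 3 counts in every library, whereas the goblet genes Clca1 and Rep15 were at 0.55 to 1.93 and 1.85 to 4.10 CPM. The enterocyte list summed to 35.5 to 43.9 CPM in Ad-GFP, 45.1 to 48.3 in Ad-hHIF2 and 43.9 to 55.8 in Ad-hHIF1, most of it Krt20, and of its 5 genes tested against Ad-GFP 1 passed, Apoa4, at 2.22 to 2.81 CPM in Ad-hHIF2 and at most 0.0511 elsewhere. The other 4 had log2 fold changes of -1.67 (Fabp2) to 0.98 (Apoa1). The 5 gastric pit and Brunner gland genes summed to 2.98 to 4.14 CPM in Ad-hHIF2, above the 1.48 to 1.91 of Ad-GFP and the 1.36 to 1.75 of Ad-hHIF1. The 6 tuft genes summed to 45.9 to 57.9 CPM over all libraries, nearly all of it Avil. The 6 stem cell genes summed to 94.1 to 112 CPM in Ad-GFP, 78.3 to 89.3 in Ad-hHIF2 and 89.4 to 106 in Ad-hHIF1, nearly all of it Cd44, which was lower in Ad-hHIF2 than in Ad-GFP (log2 fold change -0.31, adjusted p = 0.035, edgeR), while Olfm4 was at most 0.128. The other 2 stem cell genes tested had log2 fold changes of opposite sign that did not pass, 1.84 for Lgr5 (adjusted p = 0.0714) and 1.02 for Axin2 (adjusted p = 0.253, edgeR). Vim, of the 6-gene stroma list, was at 1110 to 1130 CPM in Ad-GFP, 1720 to 1810 in Ad-hHIF2 and 1000 to 1100 in Ad-hHIF1, while the other 5 genes of that list were at most 4.42, and the 4 of them that were tested had log2 fold changes of -0.10 to -1.37 in Ad-hHIF2 that did not pass. The 6 immune genes summed to 12.7 to 17.5, 15.5 to 20.7 and 10.4 to 13.1 CPM in Ad-GFP, Ad-hHIF2 and Ad-hHIF1, with Csf1r higher in Ad-hHIF2 than in Ad-GFP (log2 fold change 1.46, adjusted p = 0.0475, edgeR) and Ptprc lower (-3.92, adjusted p = 0.00472, edgeR), the latter at no more than 1.15 CPM in any library. The 4 proliferation genes summed to 81.1 to 96.5, 60.7 to 69.0 and 83.5 to 86.9 CPM in the same order. All 4 had negative log2 fold changes in Ad-hHIF2 against Ad-GFP, -0.51 to -0.26, and 2 passed (smallest adjusted p 0.00629, edgeR). Against Ad-hHIF1, 2 of the 4 proliferation genes and 1 of 4 stem cell genes tested were lower in Ad-hHIF2 (smallest adjusted p 0.00566 and 0.0316, edgeR). The part of these shifts in the differences below was not tested.

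Per kilobase of effective length, Muc1, a transmembrane mucin of epithelial surfaces, had the highest level of the 80 members, at 55.1 ± 10.5 CPM per kb (SD, n = 3) in Ad-GFP organoids. B3gnt3, which extends core 1, followed at 32.1 ± 2.32 CPM per kb and St3gal6, which caps galactose with α2,3-linked sialic acid, at 26.4 ± 2.58 (SD, n = 3 each). Among galactosyltransferases, core enzymes and GalNAc-transferases the highest in Ad-GFP organoids were B4galt1, the main galactosyltransferase of N-acetyllactosamine, at 16 ± 0.377, Gcnt1 at 12.4 ± 0.591 and Galnt10 at 11.6 ± 1.13 CPM per kb (SD, n = 3 each). Gel-forming mucins were low: Muc2 was at 5.59 ± 1.41 CPM per kb and the other 4 at most at 0.111. The effective length behind the value of Muc2 ranged from 471 to 1467 bases between libraries, that of Muc4 from 869 to 10668 and that of Galnt9 from 1405 to 2748. The per-length levels of these 3 genes, which use the mean over libraries, therefore depend on the length taken. The rank of Muc1 rests on a short effective length, 725 to 896 bases. Without scaling by length its mean in Ad-GFP was 44.3 CPM, below B3gnt3 (63.0), B4galt1 (61.0), Gcnt1 (54.8), St6gal1 (52.4) and Galnt10 (49.7). At the other end, 29 members had too few counts for any test, with no more than 22 counts in any sample. They included Muc3, Muc3a, Muc15, Muc16 and Muc20, Galnt5, Galnt6, Galnt13 and Galnt14, the core 3 enzyme B3gnt6, Fut1, Fut2, Fut7 and Fut9, and St6galnac1, St6galnac3 and St6galnac5.

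**Figure D1:**
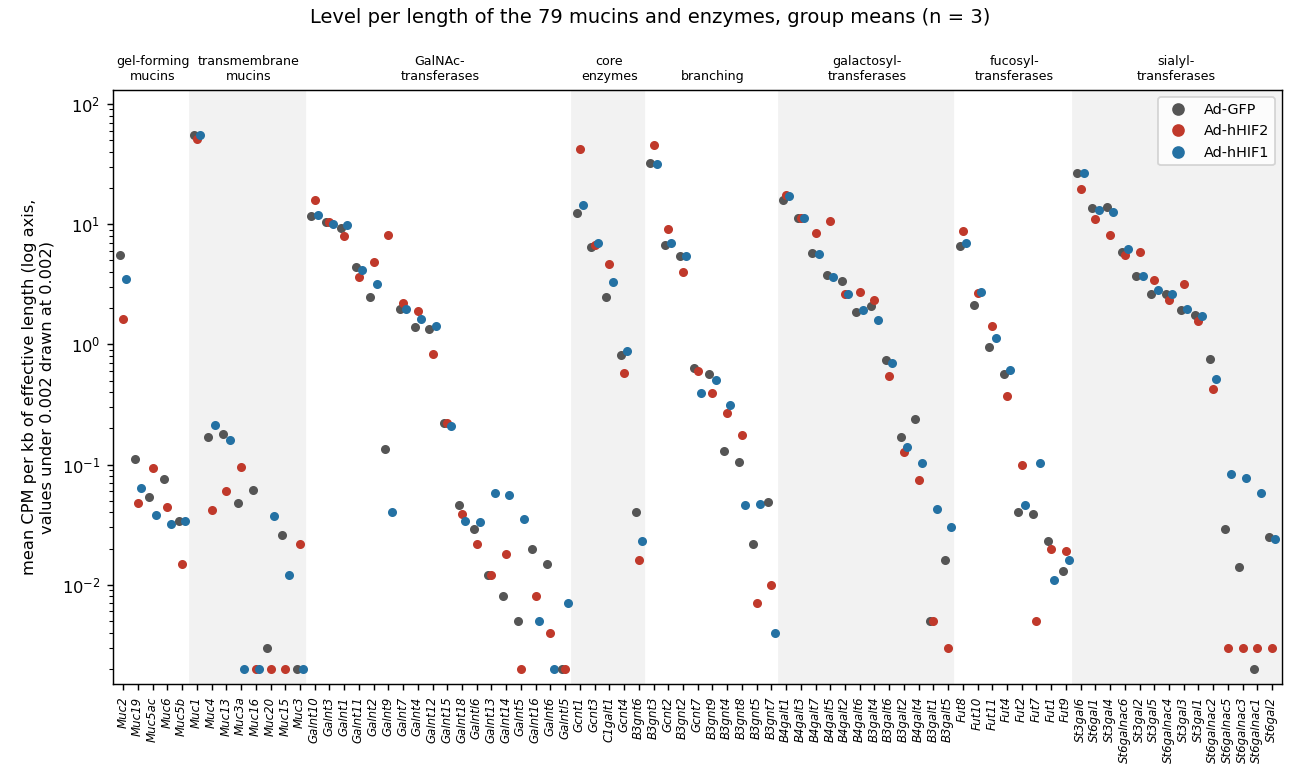
Mean level of each mucin and enzyme in CPM per kb of effective length (log axis) by role group, one point for each group of 3 samples. Muc1 lies highest at 55.1 CPM per kb in Ad-GFP, and the Ad-hHIF2 points of Galnt9, Gcnt1 and B4galt5 lie above those of both other groups.

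The comparison of Ad-hHIF2 with Ad-GFP asks what HIF2 did to these genes. Of the 51 members tested, 14 were higher (27.5%) and 5 lower (9.80%) at an adjusted p below 0.05 (edgeR quasi-likelihood test, Benjamini-Hochberg over all genes tested). Among all 14987 genes tested, 15.9% were higher and 13.6% lower. The members were chosen with earlier results of these data known, so these shares describe them and do not test them as a set. At least 2-fold changes were seen in 3 higher members, Galnt9, Gcnt1 and B4galt5, where 2.90% of all genes rose as much, and in 2 lower members, Muc2 and Muc4, where 3.83% of all genes fell as much. Without Ad-hHIF2 replicate 3 the lower members numbered 3. The median log2 fold change was 0.00 over the 51 members and -0.01 over all genes. The summed level of the members was 721 to 742 CPM in Ad-GFP, 948 to 990 in Ad-hHIF2 and 753 to 755 in Ad-hHIF1 libraries. The count filter asked for 0.278 CPM in at least 3 samples, and 43 of the 51 members reached it in every sample. In 6 members only 1 group reached it in all its samples, Ad-hHIF2 for Galnt9, B3gnt4 and Muc5ac and Ad-GFP for Muc4, Muc5b and Muc13, so for these the filter itself favours a difference. Organoids were sequenced in bulk, so fewer cells of a type and less RNA per cell cannot be told apart for any gene below.

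**Figure D2:**
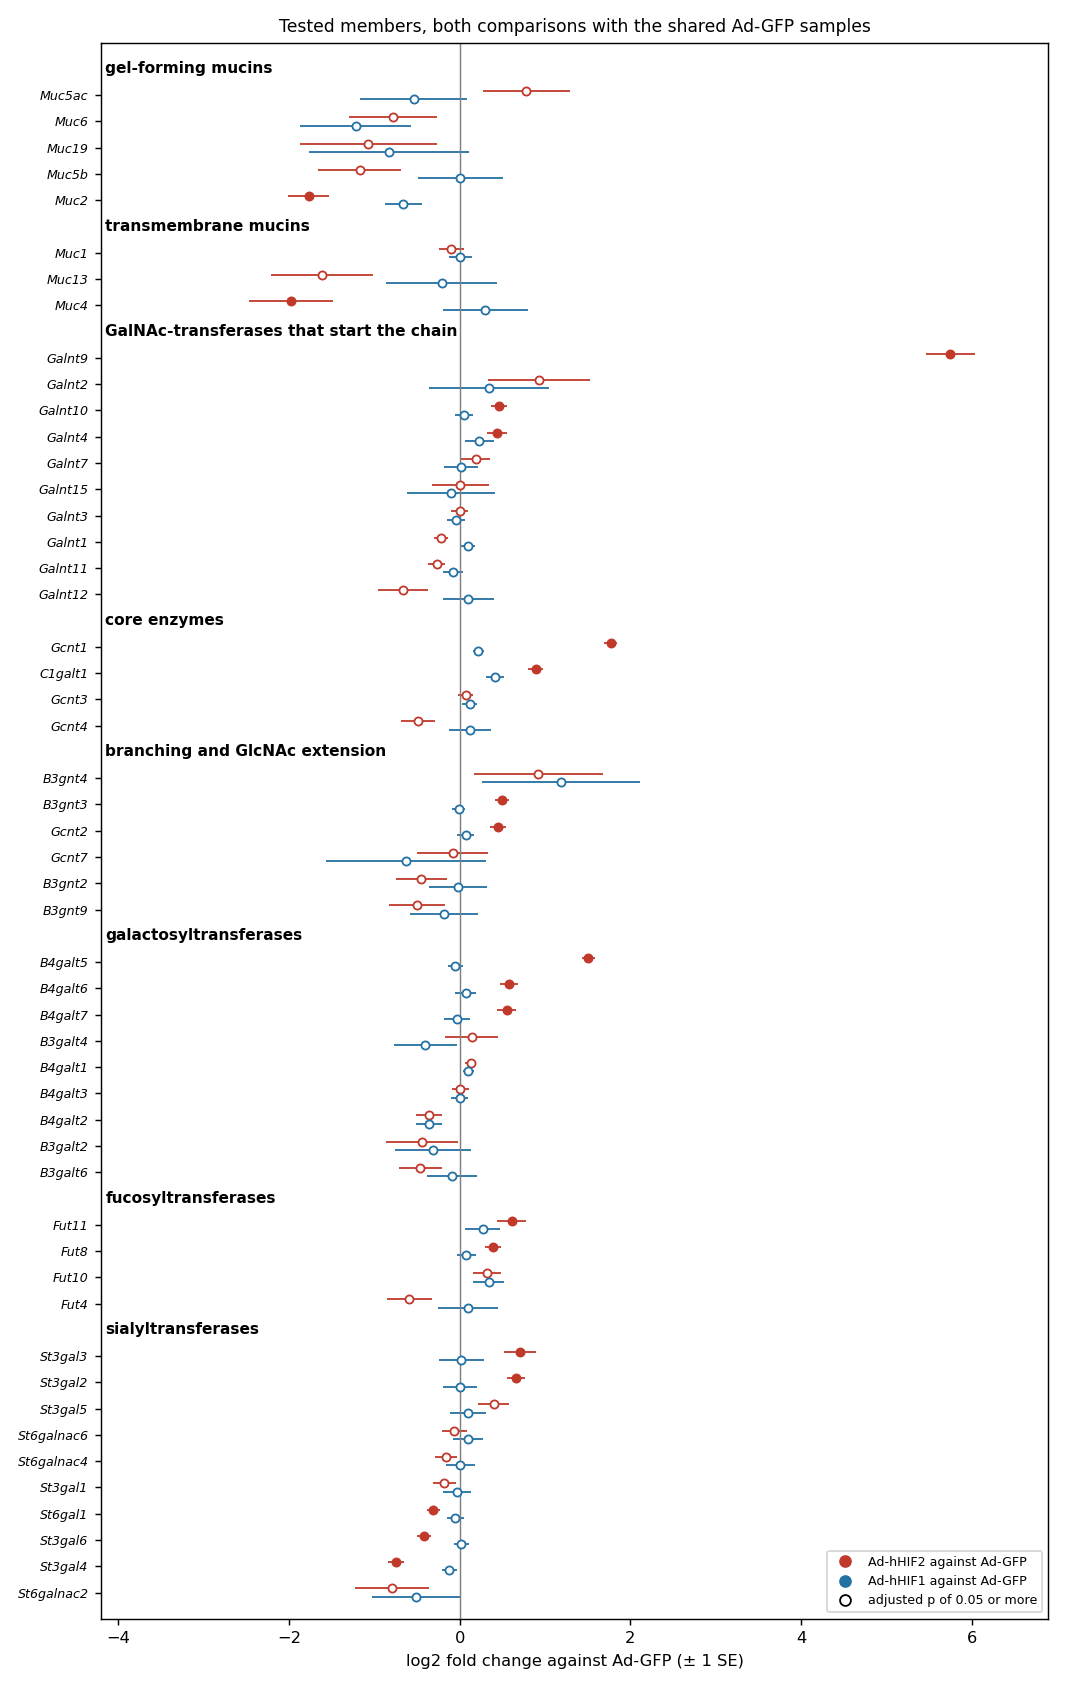
Log2 fold change against Ad-GFP (bars, 1 SE) of the 51 tested members by role group, for Ad-hHIF2 and Ad-hHIF1, which share their 3 control samples. Filled points passed an adjusted p of 0.05, which 14 higher and 5 lower members did under Ad-hHIF2 and 0 under Ad-hHIF1, and Galnt9 has no Ad-hHIF1 point because it was not tested there.

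Of the 5 gel-forming mucins, all tested, 1 fell (20%, against 13.6% of all genes) and 4 did not pass. Muc2 (chromosome 7, 141690340 to 141754693, plus strand) was at 4.65, 5.43 and 7.5 CPM in Ad-GFP organoids, at 1.62, 1.49 and 2.01 in Ad-hHIF2 and at 3.46, 4.07 and 3.53 in Ad-hHIF1. Every Ad-hHIF2 sample lay below every sample of the other groups. The log2 fold change of Muc2 against Ad-GFP was -1.77 (SE 0.237, adjusted p = 0.000882, edgeR), on 62 to 76 counts per Ad-hHIF2 library and 150 to 196 per Ad-GFP library. The 8-gene goblet list summed to 4.19 to 5.95 CPM in Ad-GFP and 2.92 to 4.73 in Ad-hHIF2, 4 of its genes (Tff3, Zg16, Atoh1 and Spdef) had at most 3 counts in every sample, and the 2 that could be tested, Clca1 and Rep15, did not pass (adjusted p 0.298 and 0.592, edgeR). Muc5ac, the gel-forming mucin of airway and gastric surface, was at 0.277 to 0.874 CPM in Ad-GFP and 0.647 to 1.14 in Ad-hHIF2, with overlapping groups (log2 fold change 0.78, adjusted p = 0.288, edgeR, and 0.46 to 1.5 with 1 library left out). Muc19 was at no more than 0.700 CPM in any library (log2 fold change -1.07, adjusted p = 0.351, edgeR, and -2.18 to -0.46 with 1 library left out).

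Of the 8 transmembrane mucins 3 could be tested, and 1 fell (33.3%, against 13.6% of all genes). Muc4 (chromosome 16, 32735886 to 32782391, plus strand) had 39, 44 and 18 counts in the Ad-GFP libraries, 16, 16 and 3 in Ad-hHIF2 and 30, 53 and 32 in Ad-hHIF1. In CPM the Ad-hHIF2 samples, at 0.097 to 0.366, lay below all others. Against Ad-GFP its log2 fold change was -1.98 (SE 0.491, adjusted p = 0.0167, edgeR). Muc4 passed the count filter through its Ad-GFP libraries, rested on few counts, and its adjusted p rose above 0.05 without Ad-GFP replicate 3 (0.063) or without Ad-hHIF2 replicate 3. Muc20 overlaps Muc4 on the other strand, and had at most 7 counts in any sample. Muc1 did not pass, at 38.8 to 54.0 CPM in Ad-GFP and 37.2 to 48.1 in Ad-hHIF2 (log2 fold change -0.10, SE 0.147, adjusted p = 0.66, edgeR). Muc13, a transmembrane mucin of the gut, was below 1 CPM in every library and did not pass (log2 fold change -1.61, adjusted p = 0.0737, edgeR).

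Among the 18 GalNAc-transferases, 10 were tested, 3 rose (30%, against 15.9% of all genes) and 0 fell (against 13.6%). Galnt9 (chromosome 5, 110544355 to 110621380, plus strand), a GalNAc-transferase described chiefly from brain, had 12, 18 and 1 counts in the Ad-GFP libraries and 811, 876 and 552 in the Ad-hHIF2 libraries. In CPM these were 0.328, 0.499 and 0.05 against 18.5, 17.2 and 17.9, with no overlap. Its fitted log2 fold change was 5.75 (SE 0.290, adjusted p = 3.97e-06, edgeR), or 53.9-fold. Ratios of the summed counts, scaled by library size, gave 53.3 with a 95% counting interval of 37.4 to 78.6 (exact binomial, counting error only). At 8.19 ± 0.311 CPM per kb (SD, n = 3) in Ad-hHIF2 organoids, Galnt9 was near Galnt1, at 7.94 ± 0.336, subject to the length taken, and it was at 0.134 ± 0.104 in Ad-GFP. No other gene of the annotation overlaps Galnt9.

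Galnt10 and Galnt4 rose less. Galnt10, which prefers peptides that already carry a GalNAc, was at 44.1 to 53.3 CPM in Ad-GFP and 62.5 to 72.6 in Ad-hHIF2 (log2 fold change 0.46, SE 0.0913, adjusted p = 0.00641, edgeR). Galnt4 had a log2 fold change of 0.44 (SE 0.120, adjusted p = 0.0244, edgeR). The Galnt4 call was lost with all 9 samples in 1 fit and without Ad-GFP replicate 1, Ad-hHIF2 replicate 1 or Ad-hHIF2 replicate 3, with adjusted p up to 0.084 (edgeR), and the gene lies within Poc1b on the same strand. Galnt3 and Galnt1, the latter a widely expressed enzyme of the family, did not pass, with log2 fold changes of 0.00 and -0.22 (adjusted p 0.976 and 0.0755, edgeR).

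Galnt2 was low in 1 library. It was at 13.8, 13.1 and 0.750 CPM in the Ad-GFP libraries and at 19.7, 16.7 and 17.9 in Ad-hHIF2, and its log2 fold change of 0.93 did not pass (adjusted p = 0.279, edgeR). Without Ad-GFP replicate 4, the low library, the log2 fold change was 0.44 (adjusted p = 0.00942, edgeR), and the gene also passed with no count filter. Galnt2 overlaps the gene model Gm20388 on the same strand and its expected counts are not whole, so reads may be shared between these and other genes, which was not tested. Galnt2 and Gm20388 together were at 56.5, 49.6 and 47.1 CPM in Ad-GFP and 65.3 to 74.4 in Ad-hHIF2. This sum was still lower in Ad-GFP replicate 4 than in any other library. Gm20388 alone was at 42.7, 36.5 and 46.4 CPM in the Ad-GFP libraries and was the larger part of each sum. The cause of the low Galnt2 value was not tested.

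The core enzymes held the largest absolute gain. Their summed level was 98.6 to 103 CPM in Ad-GFP and 236 to 252 in Ad-hHIF2 libraries. Of 4 tested, 2 rose (50%, against 15.9% of all genes) and 2 did not pass. Gcnt1 (chromosome 19, 17326141 to 17372844, minus strand), the broadly expressed core 2 enzyme, was at 55.1, 57.1 and 52.0 CPM in Ad-GFP and 193, 186 and 178 in Ad-hHIF2. Its groups were far apart relative to their spread, with 54.8 ± 2.6 CPM in Ad-GFP and 185.7 ± 7.41 in Ad-hHIF2 (mean and SD of 3 samples each). This was a log2 fold change of 1.77 (SE 0.0743, adjusted p = 1.28e-06, edgeR), the smallest adjusted p of the members. In Ad-hHIF2 organoids Gcnt1 stood at 42.2 ± 1.68 CPM per kb (SD, n = 3), below Muc1 at 51.3 ± 7.40 and B3gnt3 at 45.2 ± 2.94 and above every other member, of which St3gal6 was next at 19.6 ± 0.701.

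C1galt1 (chromosome 6, 7844842 to 7875687, plus strand), the core 1 synthase, was at 14.6, 16 and 14 CPM in Ad-GFP, 29.2, 25.6 and 28.0 in Ad-hHIF2 and 20.6, 21.3 and 17.5 in Ad-hHIF1. The 3 groups did not overlap, with Ad-hHIF1 in between. Against Ad-GFP the log2 fold change in Ad-hHIF2 was 0.89 (SE 0.0837, adjusted p = 0.000135, edgeR). C1galt1c1, its chaperone, had a log2 fold change of 0.60 at the threshold (adjusted p = 0.0496, edgeR). Gcnt3, the mucin-type core 2 and core 4 enzyme, did not pass, at 25.6 to 29.3 CPM in Ad-GFP and 26.5 to 30.4 in Ad-hHIF2 (log2 fold change 0.07, SE 0.0903, adjusted p = 0.624, edgeR).

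**Figure D3:**
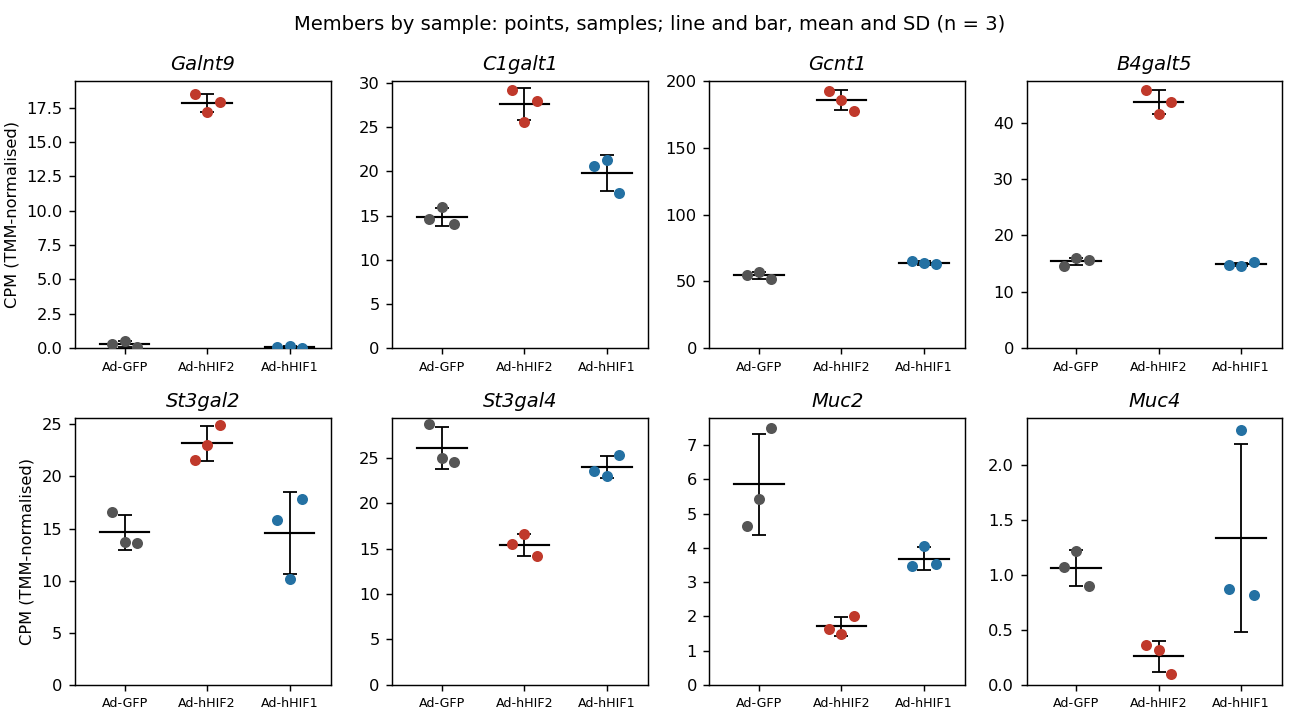
CPM of 8 members in each of the 9 samples, on linear axes from 0, with the mean and SD of each group of 3. Ad-hHIF2 samples lie above all others for Galnt9, C1galt1, Gcnt1, B4galt5 and St3gal2 and below all others for St3gal4, Muc2 and Muc4.

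Of the 9 genes for branching and GlcNAc extension, 6 were tested and 2 rose (33.3%, against 15.9% of all genes). B3gnt3 rose from 60.3, 60.4 and 68.2 CPM in Ad-GFP to 93.2, 82.2 and 90.8 in Ad-hHIF2 (log2 fold change 0.50, SE 0.0838, adjusted p = 0.00283, edgeR). Gcnt2, the I-branching enzyme, had a log2 fold change of 0.45 (SE 0.0921, adjusted p = 0.00712, edgeR). B3gnt2, the main poly-N-acetyllactosamine enzyme, was spread from 4.45 to 11 CPM among the Ad-GFP samples alone and did not pass (log2 fold change -0.45, adjusted p = 0.29, edgeR). Without Ad-GFP replicate 4 its adjusted p was 0.0316 and its log2 fold change -0.72, with no count filter the adjusted p was 0.0429, and without Ad-GFP replicate 1 it was 0.718, with a log2 fold change of -0.17 (edgeR).

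Among the 12 galactosyltransferases, 9 were tested, 3 rose (33.3%, against 15.9% of all genes) and 0 fell (against 13.6%). B4galt5 (chromosome 2, 167298444 to 167349183, minus strand), a lactosylceramide synthase, was at 14.6, 15.9 and 15.6 CPM in Ad-GFP, 45.8, 41.6 and 43.6 in Ad-hHIF2 and 14.7, 14.6 and 15.2 in Ad-hHIF1. The Ad-hHIF2 samples stood apart while the other groups overlapped. The log2 fold change against Ad-GFP was 1.51 (SE 0.0717, adjusted p = 2.89e-06, edgeR). B4galt6, its close relative with the same substrate, had a log2 fold change of 0.58 (SE 0.108, adjusted p = 0.00476, edgeR). B4galt7, which acts on the proteoglycan linker and not on mucins, had one of 0.55 (SE 0.108, adjusted p = 0.00602, edgeR). B4galt1, the highest of the family, was at 59.5 to 62.3 CPM in Ad-GFP and 65.6 to 67.8 in Ad-hHIF2 and did not pass (log2 fold change 0.13, SE 0.0648, adjusted p = 0.161, edgeR), nor did B4galt3 (log2 fold change 0.01, adjusted p = 0.932, edgeR).

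Of the 8 fucosyltransferases, 4 were tested and 2 rose (50%, against 15.9% of all genes). Fut8, which adds the core fucose of N-glycans, was at 17.5 to 21.3 CPM in Ad-GFP and 24.3 to 26.8 in Ad-hHIF2 (log2 fold change 0.39, SE 0.0895, adjusted p = 0.0116, edgeR). Fut11 was at 2.84 to 3.16 and 3.98 to 4.90 CPM (log2 fold change 0.61, SE 0.170, adjusted p = 0.0273, edgeR). The Fut11 call was lost without Ad-GFP replicate 1 or 3 or Ad-hHIF2 replicate 1 or 3, with adjusted p up to 0.0987 (edgeR). Fut10 did not pass (log2 fold change 0.32, adjusted p = 0.183, edgeR). The blood group enzymes Fut1 and Fut2 had at most 5 and 12.8 counts in any sample.

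Of the 14 sialyltransferases 10 were tested, 2 rose (20%, against 15.9% of all genes) and 3 fell (30%, against 13.6%). St3gal4 (chromosome 9, 35046576 to 35119268, minus strand), which caps N-acetyllactosamine, was at 28.7, 25.0 and 24.5 CPM in Ad-GFP and 15.5, 16.6 and 14.2 in Ad-hHIF2, without overlap. The log2 fold change of St3gal4 was -0.75 (SE 0.0941, adjusted p = 0.000614, edgeR). St3gal6 was at 38.1 to 45.4 CPM in Ad-GFP and 29.7 to 31.6 in Ad-hHIF2 (log2 fold change -0.42, SE 0.0841, adjusted p = 0.00643, edgeR). St3gal6 overlaps Dcbld2 on the other strand, which was higher in Ad-hHIF2 (log2 fold change 0.44, adjusted p = 0.00311, edgeR). The expected counts of St3gal6 are not whole, and sharing of reads was not tested. St6gal1, the main α2,6-sialyltransferase of N-glycans, was at 48.8 to 56.6 CPM in Ad-GFP and 41.7 to 42.2 in Ad-hHIF2 (log2 fold change -0.31, SE 0.0752, adjusted p = 0.0143, edgeR). Its call was lost without Ad-hHIF2 replicate 1 or 3, with adjusted p up to 0.0571 (edgeR).

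The 2 that rose were St3gal2 and St3gal3. St3gal2, which sialylates the galactose of core 1, was at 16.6, 13.7 and 13.6 CPM in Ad-GFP and 21.6, 23.0 and 24.9 in Ad-hHIF2 (log2 fold change 0.66, SE 0.105, adjusted p = 0.0022, edgeR). St3gal3 had a log2 fold change of 0.71 (SE 0.187, adjusted p = 0.0215, edgeR), and its call was lost without Ad-hHIF2 replicate 1 or 4. The summed sialyltransferase level was 162 to 180 CPM in Ad-GFP and 151 to 152 in Ad-hHIF2.

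The comparison of Ad-hHIF1 with Ad-GFP used the same 3 control samples. Mouse Hif1a itself had a log2 fold change of 0.49 here and did not pass (adjusted p = 0.486, edgeR). Epas1 had one of 8.6 in Ad-hHIF2 against Ad-GFP. The HIF groups thus differed in the measured rise of their HIF gene, and a lack of calls here does not show that HIF1 left the members unchanged. Of the 50 members tested, 0 passed an adjusted p of 0.05 in edgeR, in DESeq2 or with any sample left out, and 0% of all 15233 genes passed in edgeR. The study used another test, EBSeq, and did report genes that differed between these groups, so the lack of calls depends on the method. At an unadjusted p below 0.05 there were 3 of 50 members (6.00%), C1galt1, Gcnt1 and Muc2, against 8.59% of all genes. C1galt1 had a log2 fold change of 0.41 (SE 0.105, adjusted p = 0.49, edgeR) and Gcnt1 of 0.22 (SE 0.0678, adjusted p = 0.501, edgeR). Gcnt1 was at 65.5, 63.5 and 62.7 CPM in Ad-hHIF1, above the 52.0 to 57.1 of Ad-GFP. Muc2 had a log2 fold change of -0.66 (SE 0.219, adjusted p = 0.517, edgeR). Galnt9, with 2, 4 and 1 counts in the Ad-hHIF1 libraries, was too low to be tested. Its summed count there was 7, against 31 in the Ad-GFP libraries.

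Ad-hHIF2 and Ad-hHIF1 were compared directly in a fit of all 9 samples, which holds the same Ad-hHIF2 samples as the comparison above. Of 51 members tested, 12 were higher (23.5%) and 6 lower (11.8%) in Ad-hHIF2, where 13.7% and 12.0% of all 15556 genes were. At least 2-fold differences were called for 3 higher members (2.42% of all genes) and 2 lower members (3.70% of all genes). The higher ones were Galnt9, Gcnt1 (log2 fold change 1.54, SE 0.0687, adjusted p = 2.96e-07, edgeR) and B4galt5 (1.55, SE 0.0697, adjusted p = 3e-07, edgeR). For Galnt9 the fitted log2 fold change was 7.85 (adjusted p = 2.12e-06, edgeR), but the value depends on 7 counts, was 8.64 without Ad-hHIF1 replicate 3 and 7.36 to 7.85 without each other HIF library, and Galnt9 reached the count filter in 3 Ad-hHIF2, 2 Ad-GFP and 0 Ad-hHIF1 libraries, so the filter favours a difference here too. The ratio of the summed counts of Galnt9, 2239 against 7, was 245 with a 95% counting interval of 119 to 611 (exact binomial).

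Both mucins that fell against Ad-GFP were also lower in the direct contrast. Muc2 was at a log2 fold change of -1.11 (SE 0.224, adjusted p = 0.00479, edgeR) and Muc4 at -2.29 (SE 0.573, adjusted p = 0.0149, edgeR). Muc4 had its highest value, 2.32 CPM, in Ad-hHIF1 replicate 3, the library with the high satellite share, and the other Ad-hHIF1 libraries were at 0.873 and 0.818. Without that library the log2 fold change of Muc4 was -1.67 (adjusted p = 0.0468, edgeR). C1galt1 was higher in Ad-hHIF2 (log2 fold change 0.48, SE 0.0953, adjusted p = 0.00456, edgeR), as were B3gnt3 (0.50), B4galt6 (0.50), B4galt7 (0.57), Galnt10 (0.41), Gcnt2 (0.38), Fut8 (0.31), St3gal2 (0.66) and St3gal3 (0.69). St3gal4 (-0.64), St3gal6 (-0.44), St6gal1 (-0.27) and Galnt1 (-0.32, adjusted p = 0.0123, edgeR) were lower. The calls of Fut8, Galnt10, Gcnt2, Galnt1, St3gal2, St3gal3 and St6gal1 were each lost with at least 1 library left out, that of Fut8 in DESeq2 and in all 6 such fits, and that of St6gal1 also with no count filter. Galnt2 did not pass here (log2 fold change 0.61, adjusted p = 0.503, edgeR) but was called with no count filter (2.39e-05), in a fit of the 6 HIF samples (0.0303) and in DESeq2 (0.00442). Without Ad-hHIF1 replicate 3, 10 members were higher and 7 lower.

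Genes that supply the enzymes were read from a list of 24 for the synthesis and Golgi transport of donor sugars. The lists here and in the next paragraphs were chosen with earlier results of these data known. Their shares beside those of all genes are therefore descriptions and not tests of the lists. Of 23 tested between Ad-hHIF2 and Ad-GFP, 7 rose (30.4%) and 2 fell (8.70%), against 15.9% and 13.6% of all genes, and the median log2 fold change was 0.24 against -0.01. Gfpt1, the entry enzyme of the hexosamine pathway to UDP-GlcNAc, was at 102, 104 and 71.9 CPM in Ad-GFP and 210, 194 and 156 in Ad-hHIF2, a log2 fold change of 1.01 (SE 0.156, adjusted p = 0.00184, edgeR). Cmah, which turns CMP-Neu5Ac into CMP-Neu5Gc, fell from 10.8, 14.4 and 15.2 CPM to 5.35, 5.91 and 8.15 (log2 fold change -1.06, SE 0.189, adjusted p = 0.00382, edgeR). The UDP-galactose transporter Slc35a2 and the GDP-fucose transporter Slc35c1 rose by log2 fold changes of 0.90 and 0.85 (adjusted p 0.00274 and 0.00288, edgeR). Also higher were Fuk (0.70) and Fpgt (0.51) of fucose salvage, Ugp2 (0.66) and Slc35d1 (0.63), and Galk1, the galactokinase, was lower (-0.35, adjusted p = 0.038, edgeR). Nanp, which takes the phosphate off phosphorylated sialic acid, had the largest log2 fold change of the list, 1.77, but ranged from 0 to 1.14 CPM in Ad-GFP and from 0.582 to 2.67 in Ad-hHIF2 and did not pass (adjusted p = 0.147, edgeR). In Ad-hHIF1 it was at 1.41 to 3.63 CPM (log2 fold change 2.11, adjusted p = 0.577, edgeR). The study, with EBSeq, lists Nanp among the genes raised by both HIFs. Nanp and the genes below 2-fold are named after their values were seen.

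In a list of 34 O-glycan enzymes and chaperones outside the member families, 23 were tested, 4 rose (17.4%, near the 15.9% of all genes) and 0 fell, where 13.6% of all genes did. A4galt, the Gb3 synthase, was at 0.847, 0.998 and 2.05 CPM in Ad-GFP, 5.03, 5.75 and 4.33 in Ad-hHIF2 and 0.495, 0.263 and 0.486 in Ad-hHIF1. The log2 fold change of A4galt in Ad-hHIF2 was 2.02 (SE 0.324, adjusted p = 0.00224, edgeR). B4galnt3, which makes LacdiNAc ends, was at 0.499 to 0.574 CPM in Ad-GFP and 1.24 to 1.55 in Ad-hHIF2 (log2 fold change 1.38, SE 0.328, adjusted p = 0.014, edgeR). Ggta1, the α1,3-galactosyltransferase, and C1galt1c1 were the others.

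Of 22 goblet differentiation and mucus granule genes only 9 had enough counts to be tested, of which 2 rose (22.2%, against 15.9% of all genes) and 0 fell (against 13.6%). Klf4, a transcription factor of goblet and surface epithelial cells, was at 35.1, 31.7 and 25.7 CPM in Ad-GFP and 72.7, 68.8 and 66.0 in Ad-hHIF2 (log2 fold change 1.17, SE 0.108, adjusted p = 0.000128, edgeR). Tff2, a trefoil peptide of gastric neck cells and Brunner glands, was at 0.219 to 0.350 CPM in Ad-GFP and 1.60 to 1.73 in Ad-hHIF2 (log2 fold change 2.58, SE 0.357, adjusted p = 0.00105, edgeR). Foxa1, Foxa2, Foxa3 and Creb3l1 did not pass, with log2 fold changes between -0.21 and 0.04. In Ad-hHIF1 organoids 0 genes of the 3 lists passed, with smallest adjusted p of 0.517, 0.501 and 0.639 (edgeR), and 4, 3 and 0 genes (17.4%, 12.5% and 0%) had an unadjusted p below 0.05, against 8.59% of all genes.

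**Figure D4:**
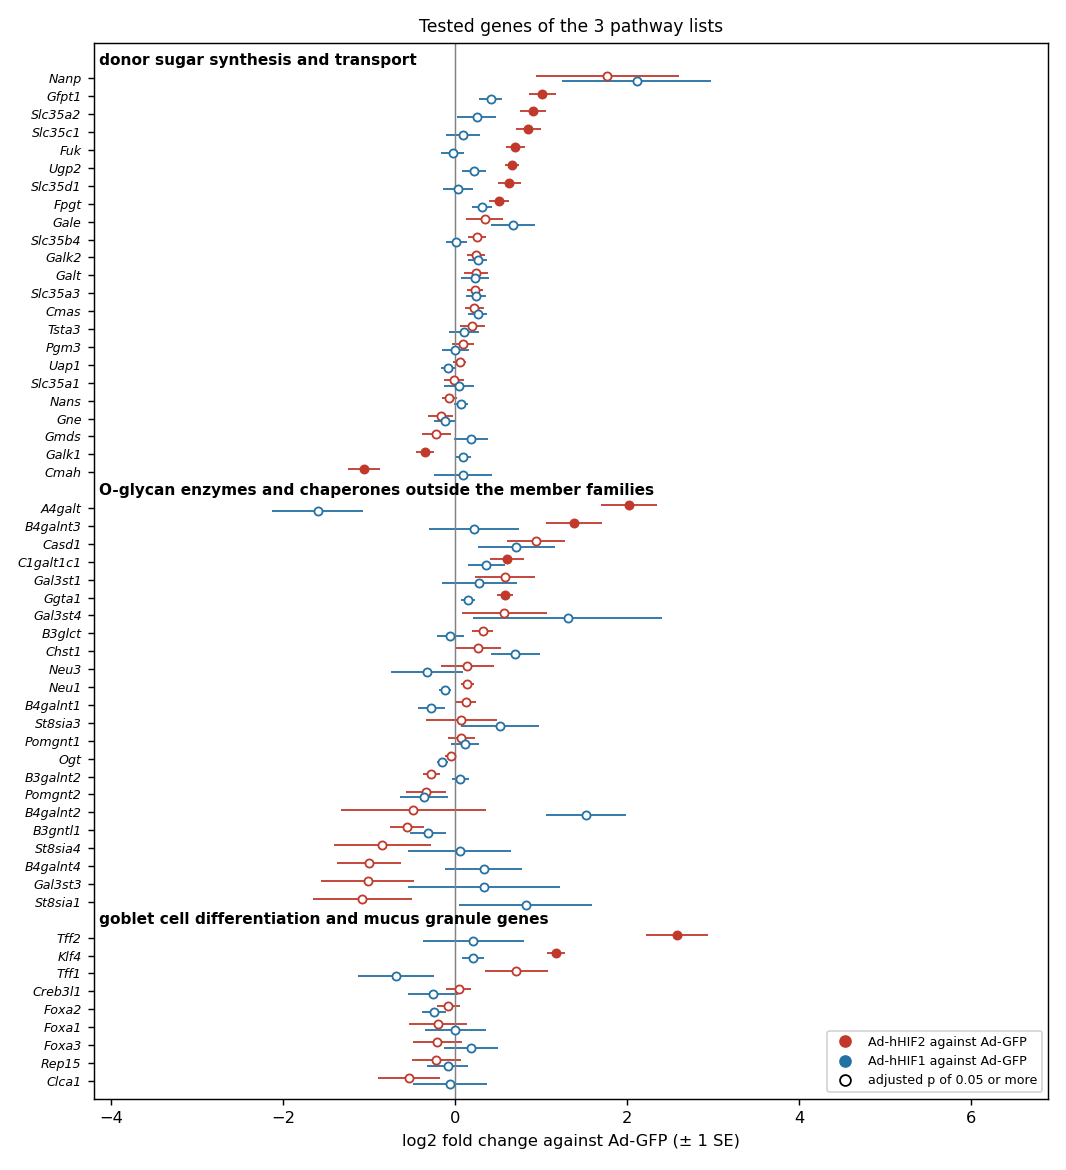
Log2 fold change against Ad-GFP (bars, 1 SE) of the tested genes of the 3 lists, for Ad-hHIF2 and Ad-hHIF1. Filled points passed an adjusted p of 0.05, with 7 donor sugar genes, 4 enzymes or chaperones and 2 goblet list genes higher under Ad-hHIF2, and Cmah and Galk1 lower.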

How the data were processed

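RNA sequencing of 9 organoid samples was used. After filtering out poor reads, the authors ran RSEM and deposited per gene an expected count (not normalized, with reads that match several genes shared between them) and a TPM, scaled by the authors' effective length. Of the members tested, 16 had expected counts that are not whole in some sample, among them St3gal6, St6gal1, B4galt6, B4galt7 and Gcnt2. The RSEM version, aligner, genome build, annotation and strandedness are not given in the sources used here. The short RNA Rn7s takes 13.1 to 18.2% of the deposited TPM, which were used only to rank members within roles.

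Expected counts were rounded to whole numbers, filtered with filterByExpr, scaled by TMM and put through the quasi-likelihood test of edgeR 4.0.16 (with limma 3.58.1 under R 4.3.3), with Benjamini-Hochberg adjustment over all genes tested. The comparisons with Ad-GFP used 6 samples each and that between the HIFs all 9, without a block. For a single value, permuting 3 against 3 samples exactly (two-sided) reaches no p under 0.10, so no such test was used. Levels between genes are TMM-scaled CPM per kb of mean effective length. No pair of libraries was identical. The tests were run on simulated data first. Python 3.11.15 and matplotlib 3.10.9 were used for tables and figures.

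Named members passed an adjusted p of 0.05 and 2-fold in any comparison, were Galnt9, were among the 3 highest by TPM in their role, or were among the 5 smallest adjusted p per direction against Ad-GFP. Galnt2, Galnt4, B4galt6, St3gal3 and members listed as untested were named after their values were seen. Members and lists were chosen with earlier results of these data known. Promoter windows were taken from RefSeq (GRCm38.p6), which held 58 of the 80 members. Alternatives were no count filter, median-ratio size factors, DESeq2 1.42.0, a replicate block, other sample sets in the fit and each replicate left out.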

Additional observations from a re-analysis of the deposited data

How the results depend on the processing

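With the replicate block, the Ad-hHIF2 organoids had 14 higher and 5 lower members against Ad-GFP and 12 and 6 against Ad-hHIF1, and 0 passed between Ad-hHIF1 and Ad-GFP, as without it. Nothing in the labels says what the replicate numbers mean, and they were not taken to pair the samples, since not every correlation was above 0.1. Same-numbered samples of Ad-GFP and Ad-hHIF2 deviated with correlations of 0.082, 0.101 and 0.25, and differently numbered ones with -0.25 to 0.167. For Ad-GFP and Ad-hHIF1 the same-numbered values were 0.184, 0.07 and -0.147, and the others -0.342 to 0.305. For the HIF groups they were -0.105, -0.13 and -0.272, and the others -0.113 to 0.249. Whether same-numbered samples of Ad-GFP and Ad-hHIF2 share a source was not tested. With each replicate left out in turn, the lower members against Ad-GFP numbered 3 to 7, with 3 without Ad-hHIF2 replicate 3 and 7 without Ad-GFP replicate 4, and the higher ones 11 to 15. In the direct contrast of the HIFs they numbered 8 to 10 higher and 4 to 7 lower. No count filter, median-ratio size factors, DESeq2 and other sample sets moved a count by at most 1. Between Ad-hHIF1 and Ad-GFP 0 members passed under all alternatives. Of 1043 log2 fold changes of members named in the text under alternatives, 40 lost and 7 gained a call, 39 of these changes with a replicate left out and 8 otherwise, and 0 called values changed sign. The calls against Ad-GFP of Galnt9, Gcnt1, B4galt5, C1galt1, B3gnt3, St3gal2, St3gal4, St3gal6 and Muc2 held under each of these alternatives. The cause of the lost calls was not tested, but a fit with fewer samples has less power. Low counts limit the mucins other than Muc1: Muc4 had at most 53 counts in a library and Muc2 at most 196.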

Other observations

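Low-level reads of untested members were unevenly spread over the libraries. Of the 29 members with too few counts for a test, 11 had their highest CPM in Ad-hHIF1 replicate 3, and the other 8 libraries each held the highest value of 0 to 4. In that library Galnt13 was at 0.963 CPM, St6galnac5 at 0.920 and St6galnac3 at 0.788, while in the other 8 libraries they were at most 0.175, 0.291 and 0.116 CPM. Muc4, a tested member, was also highest there. This library has the largest share of satellite-like counts, 15.96%. These genes were chosen after their values were seen, and the part of the satellite share in their counts was not tested.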
